A study of Drosophila melanogaster with 2 samples.

Results

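Heat shock and chaperone genes were examined among the chromatin sites of the Drosophila melanogaster protein CG33017. The genes taken were the protein-coding genes of the Ensembl annotation whose symbol begins with Hsp, Hsc70 or DnaJ, or with CCT followed by a digit. There were 35 such genes among 13945 protein-coding genes, with 52 distinct transcription start sites (TSSs). The data were chromatin immunoprecipitation sequencing (ChIP-seq) peak lists from whole adult males of 1 transgenic line that stably expresses CG33017 with green fluorescent protein (GFP) at its C-terminus. There was 1 group of 2 biological replicates and no condition to compare. The age of the flies is recorded as unknown, and the promoter that drives the tagged protein is not given in the labels. Nothing in the labels names a heat shock treatment. An untagged line was not analysed here, so signal that does not depend on the tag was not separated. Whole flies mix many tissues, and the lists do not show in which cells a site was occupied.

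The 4 peak lists were those of replicate 1, replicate 2 and the pooled replicates, with 30000 peaks each, and a list of 4867 peaks that the authors derived with the irreproducible discovery rate (IDR). The IDR peaks were the 4867 pooled peaks of highest signal, so a gene's signal and rank are the same in both. Signal is the authors' own value for a peak. Its lowest value was 105.1 in the IDR list, 23.2 in the pooled list, 9.99 in replicate 1 and 15.3 in replicate 2. A gene was counted as having a summit where the highest point of a peak lay within 500 bp of any of its TSSs. Offsets are negative upstream of the TSS. The value given for a gene in a list is that of its strongest peak there, so the replicates can contribute different peaks. The read depth behind the lists is unknown here.

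Molecular chaperones hold unfolded proteins in solution, help them to fold or pass them on for degradation. Small heat shock proteins hold unfolded proteins without using ATP. Hsp70 proteins bind and release clients in ATP-driven cycles that J-domain proteins start and exchange factors such as Hsp110 finish, while Hsp90 acts late on signalling proteins. Chaperonins, Hsp60 in mitochondria and CCT in the cytosol, enclose clients in a chamber. In flies, heat makes heat shock factor (Hsf) bind heat shock elements, which are alternating GAA and TTC triplets spaced by 2 bases, and Hsp70, Hsp68, Hsp83, DnaJ-1 and the small heat shock genes are then transcribed at a high rate. The Hsc70 relatives and the CCT subunits are made without heat.

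The following windows of the RefSeq sequence of the dm6 assembly show the base sequence under IDR summits of 7 of these genes. They are the 6 heat-inducible genes that have an IDR summit, and DnaJ-H, the only gene with a perfect heat shock element lying wholly within 100 bp of such a summit. Each is written 5′ to 3′ on the strand of the gene, with the summit at its centre. Windows are 151 bases long, except for 251 bases at Hsp68. Capitals mark heat shock elements of 3 units with at most 1 mismatch.
Hsp83 (chr3L:3193041-3193191, + strand): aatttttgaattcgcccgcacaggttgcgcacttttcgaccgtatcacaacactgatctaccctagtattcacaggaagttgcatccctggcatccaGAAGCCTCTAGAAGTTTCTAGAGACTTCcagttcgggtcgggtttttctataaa
Hsp27 (chr3L:9383833-9383983, + strand): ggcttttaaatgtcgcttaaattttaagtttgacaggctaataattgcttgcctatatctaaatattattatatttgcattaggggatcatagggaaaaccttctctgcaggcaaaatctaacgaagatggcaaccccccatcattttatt
Hsp26 (chr3L:9377506-9377656, - strand): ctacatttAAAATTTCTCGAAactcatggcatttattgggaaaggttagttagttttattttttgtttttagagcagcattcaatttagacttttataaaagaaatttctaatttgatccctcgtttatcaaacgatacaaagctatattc
Hsp22 (chr3L:9373490-9373640, + strand): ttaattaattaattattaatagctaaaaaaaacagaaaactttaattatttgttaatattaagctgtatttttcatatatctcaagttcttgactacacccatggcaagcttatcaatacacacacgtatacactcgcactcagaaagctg
DnaJ-1 (chr3L:5752027-5752177, - strand): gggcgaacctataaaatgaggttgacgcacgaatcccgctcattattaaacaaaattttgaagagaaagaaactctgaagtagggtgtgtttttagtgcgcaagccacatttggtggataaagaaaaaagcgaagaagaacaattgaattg
DnaJ-H (chr2L:13165107-13165257, - strand): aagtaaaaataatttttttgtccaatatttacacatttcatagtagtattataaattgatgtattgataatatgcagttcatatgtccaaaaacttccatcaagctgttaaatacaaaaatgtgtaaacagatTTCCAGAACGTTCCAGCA
Hsp68 (chr3R:24057251-24057501, - strand): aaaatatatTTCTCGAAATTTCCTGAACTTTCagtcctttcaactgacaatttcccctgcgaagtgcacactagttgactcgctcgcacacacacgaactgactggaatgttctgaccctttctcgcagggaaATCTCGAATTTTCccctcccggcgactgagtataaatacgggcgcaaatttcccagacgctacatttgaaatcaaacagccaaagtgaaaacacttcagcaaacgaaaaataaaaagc

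The windows of Hsp27, Hsp22 and DnaJ-1 held no such element. The Hsp83 window held 4 overlapping ones in a run of 28 bases, all with 1 mismatch. The Hsp26 window held 1 with a mismatch, and the DnaJ-H window held 1 perfect element. Next are 150 bases before the start of 3 of the 6 near-identical Hsp70 genes, where no list had a summit but that absence is uncertain. Capitals mark the perfect heat shock element that each holds.
Hsp70Aa (chr3R:11956545-11956694, - strand): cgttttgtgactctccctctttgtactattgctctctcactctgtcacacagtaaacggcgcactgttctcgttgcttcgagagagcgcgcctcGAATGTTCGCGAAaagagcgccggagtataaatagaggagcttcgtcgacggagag
Hsp70Ba (chr3R:12467777-12467926, - strand): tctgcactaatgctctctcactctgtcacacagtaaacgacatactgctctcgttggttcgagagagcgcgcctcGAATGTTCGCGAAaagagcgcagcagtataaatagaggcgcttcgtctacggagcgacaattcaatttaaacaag
Hsp70Bb (chr3R:12505643-12505792, + strand): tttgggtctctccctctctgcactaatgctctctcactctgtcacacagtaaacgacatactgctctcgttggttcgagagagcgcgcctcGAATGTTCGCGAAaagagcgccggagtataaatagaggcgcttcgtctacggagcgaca

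In the IDR list 15 of the 35 heat shock and chaperone genes had a summit (42.9%, exact 95% Clopper-Pearson interval 26.3 to 60.6%), against 23.8% of all protein-coding genes. In the pooled list 20 had one (57.1%, interval 39.4 to 73.7%), against 61.3% of all protein-coding genes. Replicate 1 had a summit at 23 (65.7%, interval 47.8 to 80.9%), against 61.0%. Replicate 2 had one at 21 (60.0%, interval 42.1 to 76.1%), against 59.2%. The share of all protein-coding genes lay below the members' interval in the IDR list and inside it in the other 3 lists. The relation in the IDR list depended on the settings. The share of all protein-coding genes was inside the interval at 250 bp (11 genes, 16.9 to 49.3%, against 19.8%) and at 1000 bp (15 genes, 26.3 to 60.6%, against 27.1%). It was also inside with the 4867 strongest peaks of replicate 2 alone (14 genes, 23.9 to 57.9%, against 24.1%) and of replicate 1 alone (13 genes, 21.5 to 55.1%, against 22.5%). The intervals cover the counting of genes only, and they treat as separate genes some that are near-identical copies. All 15 genes of the IDR list were in both replicate lists. Across the lists, 24 of the 35 genes had a summit in at least 1 and 11 had none. The same counts across lists are not given here for all protein-coding genes, so these only describe the members.

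**Figure D1:**
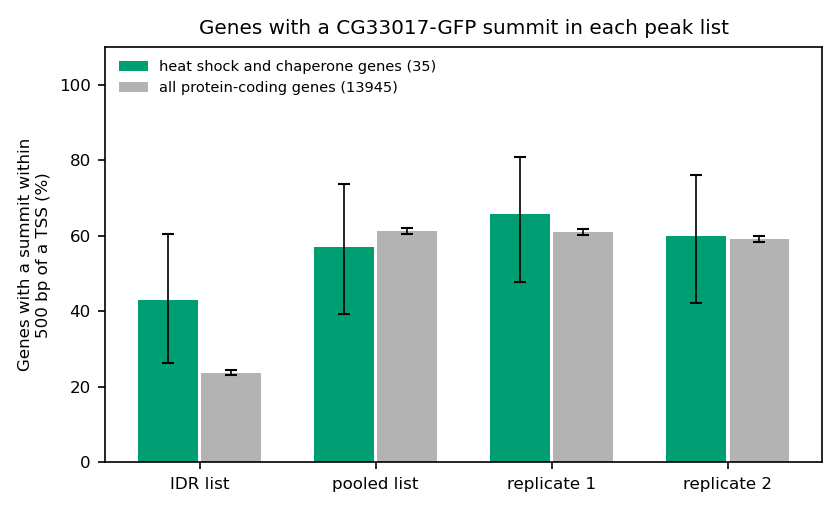
Percent of genes with a summit within 500 bp of a TSS in each peak list, for the 35 heat shock and chaperone genes (green) and all 13945 protein-coding genes (grey); error bars are exact 95% Clopper-Pearson intervals. The green bar stands at 42.9% against 23.8% in the IDR list, and the bars are close in the other lists.

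The 15 genes were spread over all 7 families but unevenly within them. Summits in the IDR list stood at the 1 Hsp90 gene, 3 of 6 small heat shock genes, 1 of 7 inducible Hsp70 genes and 4 of 6 constitutive Hsp70 and Hsp110 genes. They also stood at 2 of 3 DnaJ genes, 1 of 4 Hsp60 genes and 3 of 8 CCT genes. These families are too small for their shares to be told apart. For example, the interval was 0.361 to 57.9% for inducible Hsp70 genes and 22.3 to 95.7% for constitutive ones.

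Hsp83, the fly Hsp90 gene (FBgn0001233), had the highest signal of the 35. Its IDR peak (chr3L:3192851-3193288) had a signal of 1335 and ranked 51 of 4867, with the summit 100 bp upstream of the nearer of its 2 TSSs. The signal was 646.4 (rank 61 of 30000) in replicate 1 and 689.1 (rank 44 of 30000) in replicate 2. The summit lay in a 5′ UTR, 147 bp downstream of the other TSS, which the annotation tags as canonical. No TSS of another gene was within 500 bp.

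Of the small heat shock genes, all 6 of which lie in the 67B cluster on 3L, Hsp27 was nearly as strong as Hsp83. Hsp27 (FBgn0001226), which encodes a nuclear small heat shock protein, had an IDR peak (chr3L:9383718-9384105) with a signal of 1325 and rank 53. The summit lay 155 bp upstream of the TSS in intergenic sequence. Its signal was 690.0 (rank 52) in replicate 1 and 640.1 (rank 55) in replicate 2, so both replicates placed it almost equally.

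Hsp26 and Hsp22 had weaker peaks that ranked higher in replicate 1 than in replicate 2. Hsp26, a cytosolic small heat shock gene (FBgn0001225), had an IDR signal of 286.0 (rank 995; chr3L:9377487-9377647) at -154 bp, with 184.9 (rank 690) in replicate 1 and 117.6 (rank 1421) in replicate 2. Hsp22, whose protein resides in mitochondria (FBgn0001223), had an IDR signal of 233.7 (rank 1392; chr3L:9373480-9373612), with 147.8 (rank 1030) in replicate 1 and 80.8 (rank 2634) in replicate 2. Its summit lay in a 5′ UTR, 432 bp upstream of the nearer TSS and 634 bp downstream of the canonical one. The site also lies inside CG4456, a gene on the same strand that overlaps Hsp22, but not within 500 bp of its TSS. More than 50% of the bases of the Hsp22 peak are soft-masked as repeats, so the gene drops out when such peaks are left out.

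The remaining 3 of the 6 small heat shock genes had at most a faint summit. Hsp23 had one in replicate 1 at +19 bp (signal 12.4, rank 25082). Hsp67Bc had one there at -172 bp (signal 14.3, rank 22313), but the TSS of CG4456 was nearer, at 53 bp, and the same summit also counted for Hsp22. Neither Hsp23 nor Hsp67Bc had a summit in replicate 2 or in the pooled list. Hsp67Ba had none in any list, and its nearest pooled summit was 1204 bp away. The cluster also holds CG4461, a small heat shock gene outside the rule. Its pooled signal was 36.9 at -58 bp, with 22.6 in replicate 2 and no summit in replicate 1 or the IDR list. Over the 18184 bp of the cluster the IDR list held 3 peaks, the pooled list 6 and each replicate 7. The strongest pooled peak that was not in the IDR list had a signal of 96.3 and was nearest to the TSS of Fdx1, which is no chaperone gene. The 3 IDR peaks of the cluster therefore stood at Hsp27, Hsp26 and Hsp22, with none between them.

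**Figure D2:**
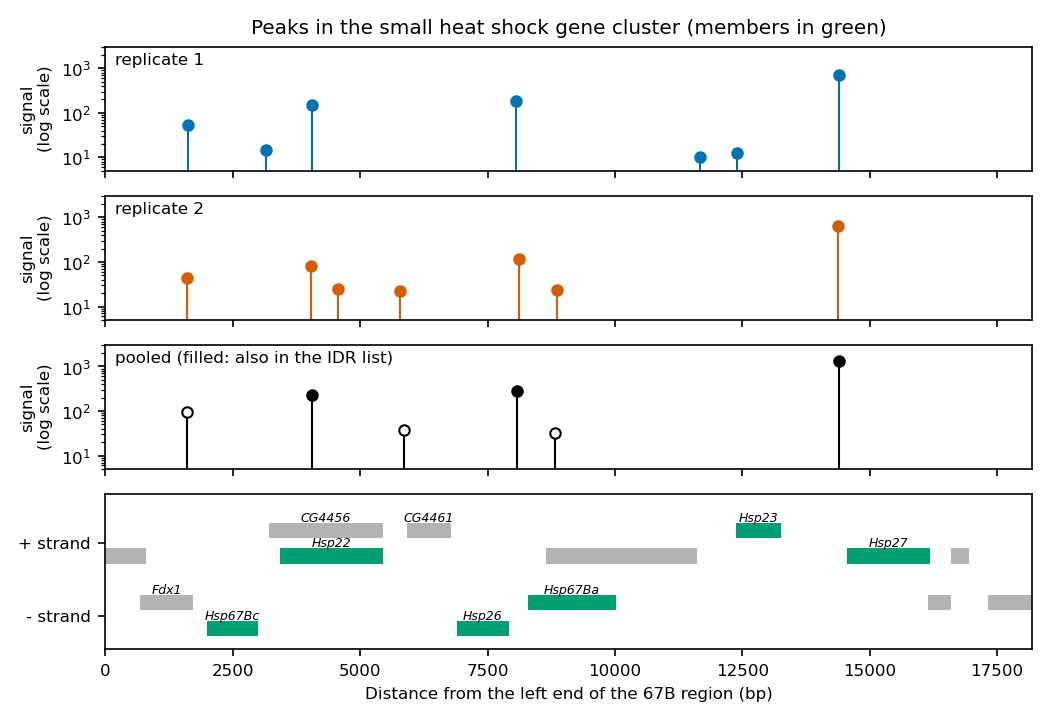
Authors' peak signal (log scale) at each summit in the 67B cluster for replicate 1, replicate 2 and the pooled list, against distance in bp from the left end of the region, with genes of each strand below and members in green. The 3 pooled peaks that are also in the IDR list (filled) stand before Hsp27 and Hsp26 and inside Hsp22, with signals of 1325, 286.0 and 233.7. The peak inside Hsp22 is also inside CG4456, which overlaps it.

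Of the 7 inducible Hsp70 genes, only Hsp68 had a summit in any of the 4 lists. It is a single-copy relative of the Hsp70 genes (FBgn0001230). Its IDR peak (chr3R:24057174-24057577) had a signal of 131.0 and rank 3508, with the summit 66 bp upstream of the TSS. The signal was 79.4 (rank 2849) in replicate 1 and 40.9 (rank 7494) in replicate 2. With the 4867 strongest peaks of replicate 2 alone, Hsp68 had no summit.

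The 6 Hsp70 copies, which encode the main heat-inducible chaperone, had no summit in any of the 4 lists. Hsp70Aa and Hsp70Ab form a divergent pair at cytological position 87A, and Hsp70Ba, Hsp70Bb, Hsp70Bbb and Hsp70Bc lie at 87C. From the TSS to the nearest pooled summit it was 6457 bp for Hsp70Aa, 4466 bp for Hsp70Ab and 2594 bp for Hsp70Ba. For Hsp70Bb, Hsp70Bbb and Hsp70Bc it was 9009, 12292 and 5726 bp. Within 2000 bp around the copies the IDR list and replicate 1 held no peak, the pooled list held 1 and replicate 2 held 2. The nearest TSS to the pooled peak (signal 24.0) was that of CG5608, and those nearest to the peaks of replicate 2 (signals 16.5 and 83.4) were of CG31211 and CG3281.

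This absence is uncertain because of the sequence of the copies. Over the 15 pairs of copies the genes were 91.2 to 99.8% identical and the promoters 75.6 to 100% identical, whereas Hsp68 was 70.9 to 71.8% identical to them over the gene. The promoter windows were placed by the annotated TSS. The element nearest to it lay 69 bp upstream in Hsp70Ba and 50 to 53 bp upstream in the other copies. Hsp70Ba also gave the lowest promoter values, 75.6 and 76.5% against Hsp70Aa and Hsp70Ab. How far this shift lowers them was not tested. Of the 50-base words within 500 bp of the TSS, 57.5% (Hsp70Ba) to 100% (Hsp70Bc) also occurred elsewhere in the genome. In the other 29 genes the median was 0%, and only Hsp60D (46.3%) and CCT2 (12.9%) were above 5%. How reads that match several places were treated is not given in the sources used here. The part of this in the lack of peaks at the copies was not tested.

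Of the constitutive Hsp70 genes, Hsc70-5, which encodes the mitochondrial Hsp70 (FBgn0001220), was the strongest. Its IDR signal was 566.9 (rank 310; chr2R:14256030-14256440) at -38 bp, with 304.0 (rank 297) in replicate 1 and 276.5 (rank 311) in replicate 2. The summit also lay within 500 bp of a TSS of CG8531. Hsp110, an exchange factor of Hsp70 (FBgn0026418), had an IDR signal of 206.5 (rank 1700; chr3L:14036869-14037272) at +52 bp, with 94.4 in replicate 1 and 110.5 in replicate 2.

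Hsc70-3 encodes BiP, the Hsp70 of the endoplasmic reticulum (FBgn0001218), and was 1 of 2 genes with a pair of IDR summits. The stronger (chrX:11807130-11807533) had a signal of 171.1 (rank 2319) at -215 bp. The weaker (chrX:11806192-11806595) had a signal of 109.9 (rank 4554) at -41 bp. These offsets are from different TSSs of the gene. From the canonical TSS the stronger summit lay at -979 bp and the weaker at -41 bp. The signal of the strongest Hsc70-3 peak was 77.4 in replicate 1 and 83.2 in replicate 2. Hsc70-4, the abundant cytosolic Hsp70 (FBgn0266599), ranked 4865 of 4867 with a signal of 105.2 at +4 bp (chr3R:15242489-15242892), just inside the list. Its strongest peak had a signal of 83.1 at +91 bp in replicate 1 and 61.6 at -255 bp in replicate 2, and these summits are 346 bp apart. The replicate 2 peak closest to the IDR summit had a signal of 39.8 (rank 7785) at -33 bp. Hsc70-1 had only a faint summit in replicate 2 (signal 15.4, rank 29492), and Hsc70-2 had none in any list.

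Among the J-domain genes, DnaJ-H had 2 IDR summits and DnaJ-1 had 1. DnaJ-H (FBgn0032474) had a signal of 244.6 (rank 1275; chr2L:13165126-13165246) at -164 bp and a second peak of 140.7 (rank 3138) at -375 bp. Its strongest peak had a signal of 151.6 at -168 bp in replicate 1 and 112.3 at -269 bp in replicate 2. Both summits also lay within 500 bp of the TSS of Sirt1, a deacetylase gene. DnaJ-1, the heat-inducible Hsp40 gene (FBgn0263106), had an IDR signal of 155.7 (rank 2696; chr3L:5752022-5752176) at +87 bp. It was higher in replicate 2, at 102.4 (rank 1811), than in replicate 1, at 49.5 (rank 5889). The replicate 2 summit was at +293 bp, and a peak of nearly the same strength (rank 1888) had its summit at +93 bp, as in replicate 1. DnaJ-60 stayed below the IDR list, with a pooled signal of 54.5 (rank 11383), 37.6 in replicate 1 and 26.1 in replicate 2.

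Of the 4 Hsp60 genes, Hsp60A, which encodes the mitochondrial chaperonin (FBgn0015245), was the only one with a summit in any list. Its IDR signal was 114.9 (rank 4278; chrX:11108135-11108538) at -145 bp. It ranked 11156 in replicate 1 (signal 29.7) and 4181 in replicate 2 (signal 60.8), which are far apart, and the summits were at +51 bp in replicate 1 and -127 bp in replicate 2. Hsp60B, a gene of the male germline, Hsp60C and Hsp60D had no summit, and their nearest pooled summits were 2091, 4262 and 2535 bp away.

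The CCT genes encode the 8 subunits of the cytosolic chaperonin that folds actin and tubulin. A summit lay near all 8 in replicate 1, 7 in replicate 2 and 7 in the pooled list, against 61.0%, 59.2% and 61.3% of all protein-coding genes. In the IDR list 3 of the 8 had one (37.5%, interval 8.52 to 75.5%), against 23.8%. CCT3 had an IDR signal of 182.5 (rank 2086; -423 bp), with 87.2 in replicate 1 and 95.3 in replicate 2. CCT5 had 175.6 (rank 2223; -336 bp), with 68.7 in replicate 1 and 76.0 in replicate 2. CCT8 had 147.3 (rank 2934; -445 bp), with 82.7 in replicate 1 and 64.0 in replicate 2, where the summit was at -272 bp and a weaker one, of signal 43.5, at -472 bp.

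Those 3 CCT summits all lay closer to the TSS of a neighbour. The summit of CCT3 was 178 bp from the TSS of CG10324, that of CCT5 was 202 bp from the TSS of Oda, which encodes the antizyme of ornithine decarboxylase, and that of CCT8 was 83 bp from the TSS of CG30349. No CCT gene had an IDR summit when each summit was given to the gene with the nearest TSS alone. The others stayed below that list. Their pooled signals were 75.6 for CCT7 (rank 7573), 72.4 for CCT4 (rank 8024), 46.0 for CCT1 (rank 13808) and 36.6 for CCT6 (rank 17753). CCT2 had a faint summit in replicate 1 (signal 25.7) and in replicate 2 (signal 32.2) but not in the pooled list, where the nearest was 575 bp away.

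**Figure D3:**
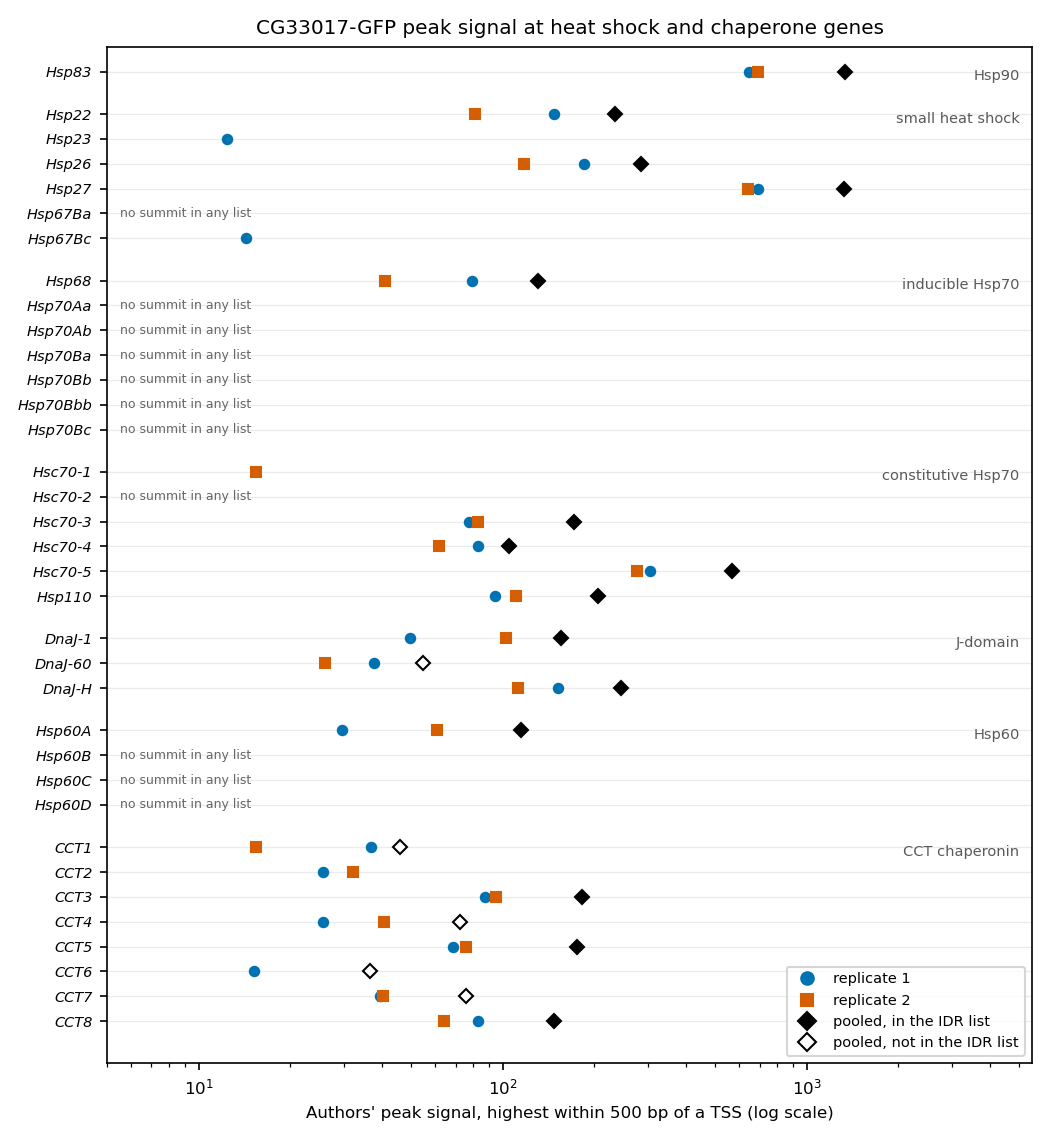
Authors' peak signal (log scale) of the strongest summit within 500 bp of a TSS for each of the 35 genes, grouped by family: circles are replicate 1, squares replicate 2 and diamonds the pooled list, filled where the peak is also in the IDR list. Hsp83 and Hsp27 stand apart at 1335 and 1325, and the 11 genes with no summit in any list include all 6 Hsp70 copies.

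As a whole, the genes with an IDR summit were of ordinary strength. Their median IDR signal was 182.5 and their median rank 2086, against 182.3 and 2088 for the 3314 protein-coding genes with an IDR summit. In the pooled list the median was 163.4 over 20 of the genes and 80.5 over 8555 protein-coding genes. In replicate 1 it was 77.4 over 23 of the genes and 42.3 over 8501 protein-coding genes. In replicate 2 it was 76.0 over 21 and 44.9 over 8255. In the IDR list the best rank was 51 and the lowest 4865, so the genes covered nearly the whole list.

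The replicates ordered the genes in a similar way, and Hsp83, Hsp27 and Hsc70-5 were the 3 strongest in both. Over the 20 genes with a summit in both replicates, Spearman's rho of the ranks was 0.874, and over the 15 in the IDR list it was 0.789. These points share the same 2 libraries, and the IDR list holds the strongest peaks of the 2 pooled. Of the 20 genes, 10 ranked higher in replicate 1. The median gap between the summits of the replicates was 65 bp, and the largest was 411 bp, at CCT2.

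**Figure D4:**
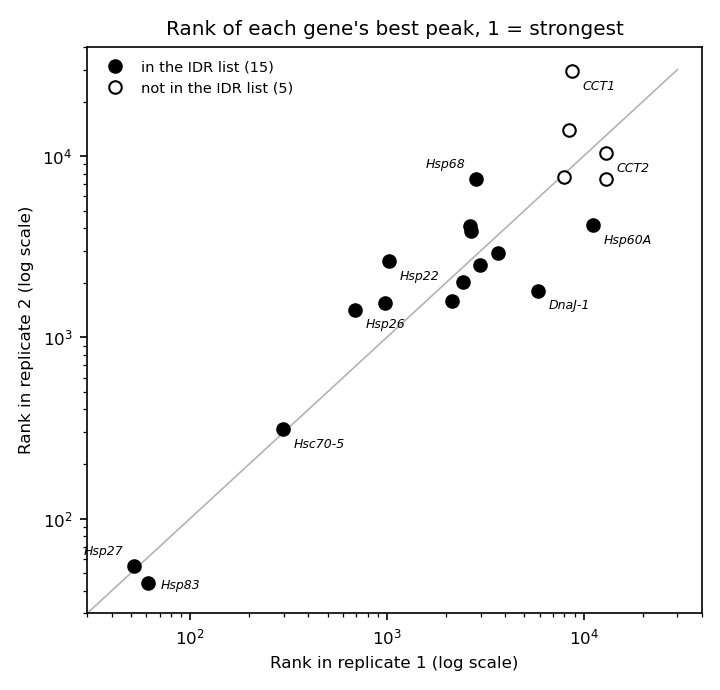
Rank of each gene's strongest peak in replicate 2 against its rank in replicate 1 (both log scales, 1 is strongest) for the 20 genes with a summit in both replicates; filled points are in the IDR list and the line marks equal ranks. Hsp83, Hsp27 and Hsc70-5 lie close to the line, while DnaJ-1, Hsp60A and CCT1 lie far from it.

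The 15 genes held 17 distinct IDR summits, most of them upstream of a TSS, as among protein-coding genes at large. Of these, 14 lay upstream and 3 downstream, those of Hsp110, DnaJ-1 and Hsc70-4. By its strongest peak, 80.0% of the 15 genes had the summit upstream, against 80.7% of the 3314 protein-coding genes with an IDR summit. The median offset over the 15 genes was -154 bp, against -119 bp over the 3314 protein-coding genes. At 9 of the 17 the summit was simply the middle of the peak, which limits how finely those positions can be read. At 8 of the 17 a TSS of another gene was within 500 bp, and at 7 of these the other gene was protein-coding. They were CG8531 at Hsc70-5, Sirt1 at both DnaJ-H summits, CG10324 at CCT3, Oda at CCT5, CG30349 at CCT8 and tefu, the fly ATM kinase gene, at Hsc70-4. The eighth lay at Hsp110 beside the antisense RNA gene asRNA:CR42871. The peak lists cannot tell which gene of such a pair a summit belongs to. No count of shared summits over all promoter summits is given here, so the 8 are a description only. The 9 other summits, those of Hsp83, Hsp27, Hsp26, Hsp22, DnaJ-1, Hsp68 and Hsp60A and both of Hsc70-3, had no other gene's TSS in reach.

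Perfect heat shock elements were found in promoters of some genes with an IDR summit and in those of the Hsp70 copies, which had none. An element of 3 perfect units was found on either strand in 250 bases before to 50 after a TSS in 9 of the 35 genes, against 0.567% of protein-coding genes (79 of 13945). The 9 were the 6 Hsp70 copies, Hsp68, Hsc70-4 and DnaJ-H. Among the genes with an IDR summit 3 of 15 had an element, and among those without one 6 of 20 had, all 6 of them Hsp70 copies. The order was the other way with looser elements. With 1 mismatch allowed, 9 of the 15 and 7 of the 20 had one, and with 2 units, 11 of the 15 and 10 of the 20. All 6 copies count among the 20 each time, and their lack of a summit is uncertain because of repeated sequence. These splits therefore cannot show whether elements and summits go together. The copies held the perfect element 50 to 69 bp before the TSS, in the capitals printed above for Hsp70Aa, Hsp70Ba and Hsp70Bb, and a second one farther upstream. Among all protein-coding genes with an element, 36.7% had an IDR summit (29 of 79), against 23.7% of those without one.

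Where a gene had an IDR summit and a perfect element in its promoter window, the distance between them was measured. The element of DnaJ-H was 64 bp from its stronger summit. The 3 overlapping elements of Hsp68 were 100 to 110 bp from its summit, and the nearest element of Hsc70-4 was 266 bp away. Outside that window but within 500 bp of a TSS, Hsp60A and CCT3 had an element 441 and 600 bp from their summits. At Hsp68, Hsc70-4, Hsp60A and CCT3 the summit is only the middle of the peak, so every distance given for them is to the peak's centre. The 3 elements of Hsp68 lie inside its peak of 404 bp. Wholly within 100 bp of the summit a perfect element was found at 1 of the 17 summits, against 0.404% of all 2967 promoter summits of the IDR list. With 1 mismatch allowed it was found at 6 of the 17, against 4.72%, and with 2 units at 6 of the 17, against 9.34%. The 6 with 1 mismatch lay at Hsp83, Hsp26, Hsp68, DnaJ-1, DnaJ-H and Hsc70-3. The nearest was 14 bp from the summit of Hsp68, 28 bp from that of Hsp83 and 61 bp from that of Hsp26. At Hsp27 the nearest was 182 bp away. Distances with a mismatch were looked at after the values were seen. A match shows letters in the reference sequence, not that Hsf was bound.

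**Figure D5:**
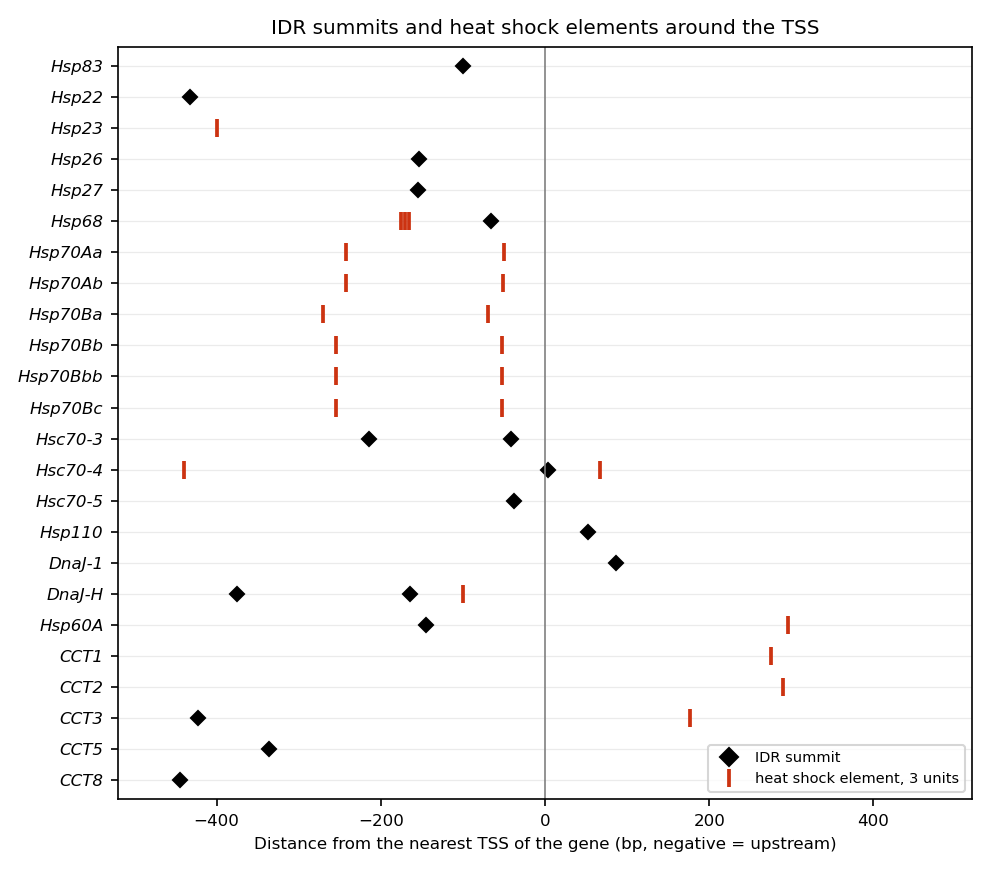
Position in bp from the TSS (negative is upstream) of IDR summits (diamonds) and perfect 3-unit heat shock elements (red bars) within 500 bp. Genes with either are shown, and each mark is drawn from its own nearest TSS. At Hsc70-4 the summit and the elements have different nearest TSSs, so their spacing is not to scale. The same holds for the spacing between the summits of Hsc70-3. The 6 Hsp70 copies have elements 50 to 69 bp before the TSS and no summit, though that lack is uncertain. Hsp83, Hsp26 and Hsp27 have summits and no perfect element.

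Other short promoter sequences were counted on both strands in the same windows. A gene with several TSSs has several windows, and 10 of the 15 genes with an IDR summit have 2 or more TSSs. TATAAA was in 26 of the 35 genes, all 6 Hsp70 copies among them, against 51.2% of protein-coding genes. It was in 14 of the 15 with an IDR summit, for which no share over all genes with an IDR summit is given here. GAGAG, which the factor encoded by Trl binds, was in 18 of the 35, against 36.3%, among them 7 of the 15 and all 6 Hsp70 copies. The DNA replication-related element TATCGATA was in 5, against 10.2%, the E-box CACGTG in 3, against 5.30%, and core promoter motif 7 (CAGCNCTA or CATCNCTA) in 5, against 11.5%. Within 100 bp of the summits, TATAAA was at 11 of 17, against 36.4% of all promoter summits, and GAGAG at 2 of 17, against 27.6%. Mean GC content over 101 bases was 34.1% ± 10.4 (SD) at the 17 summits and 36.2% ± 11.4 at all 2967 promoter summits, so the means differed by less than the spread between sites.

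The number of annotated TSSs and the presence of an IDR summit were counted together. Of the 11 heat shock and chaperone genes with 2 or more TSSs, 10 had one, with Hsc70-1 the exception, and of the 24 with 1 TSS, 5 had one. For all protein-coding genes the shares were 39.7% and 18.0%. More TSSs also give a gene more positions at which a summit can count, and the part of this was not tested. A divergent neighbour, whose TSS lies up to 500 bp upstream on the opposite strand, was found at 11 of the 35. Of these 5 had an IDR summit, against 10 of the other 24. For all protein-coding genes the shares were 41.4% with such a neighbour and 16.3% without.

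Beyond these genes, 49 others of the chaperone system were counted from a list of symbols. In the IDR list 26 of the 49 had a summit (53.1%, interval 38.3 to 67.5%), against 23.8% of protein-coding genes. With each summit given to the gene with the nearest TSS alone, 19 had one, against 17.9%. The interval treats unc-45 and CG11035 as separate genes although they share a summit. The 26 comprised 5 of 6 endoplasmic reticulum chaperone genes, 11 of 18 other J-domain genes and 4 of 8 co-chaperone genes of Hsp70 and Hsp90. They also included 3 of 6 prefoldin genes, 2 of 5 mitochondrial genes and 1 of 5 other small heat shock genes. The highest signals were those of Lon, a mitochondrial protease gene (1017, rank 98), and of mgr, a prefoldin gene (478.9, rank 406). Lon had a signal of 504.2 in replicate 1 and 515.9 in replicate 2. The next were CG7130 (263.9), the calnexin gene Cnx99A (236.0), mrj (229.0) and CG5001 (224.5). The summits of Lon, mgr and CG7130 also lay within 500 bp of a TSS of PIG-F, Irbp and RpLP0. Hsf, the gene of the heat shock factor, had no summit in the IDR list. Its pooled signal was 76.7 (rank 7413), with 51.3 in replicate 1 and 26.4 in replicate 2.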

How the data were processed

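ChIP-seq peak lists on dm6 were analysed for 2 biological replicates of 1 group. Per the labels, the precipitate was taken with an anti-GFP antibody, although the antibody field names CG33017, and chromatin was sonicated. Per the text deposited with the samples, the authors called peaks for each replicate and for the pooled replicates against 1 shared control, and took the IDR list from these. Which aligner, caller and IDR threshold were used is not given in these sources. Each deposited peak has a signal, by which peaks of a list were ranked, and a q-value deposited by the authors as −log10, not used for ranking.

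Summits were placed within 500 bp of every TSS of Ensembl release 115 (BDGP6) with transposable elements left out, and a gene took its summit of highest signal. Sequences came from the RefSeq genome, whose arm lengths equal those of dm6, so coordinates are dm6. Identity came from global alignments of genes and of promoters in Biopython 1.88 (match 2, mismatch -1, gap opening -5, gap extension -1). Proteins were not compared. No test was run on the members: counts stand beside those of all protein-coding genes, with exact 95% intervals. The labels say no more of the replicates than their numbers, so their spread may be partly technical. Procedures were tested on simulated data. The members and lists were chosen with earlier results of these data known. Every member is described. Genes outside the rule were named where they share a summit, lie in a member's cluster or, for the other chaperone-system genes, had the 6 highest IDR signals. Hsf, as the regulator of the heat shock genes, and the genes nearest to the peaks around the Hsp70 copies (CG5608, CG31211 and CG3281) were named in addition, after their values were seen. Of 52 symbols in that list, 49 matched the annotation.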

Additional observations from a re-analysis of the deposited data

How the results depend on the processing

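The count of genes in the IDR list was 11 at 250 bp from a TSS (without CCT3, CCT5, CCT8 and Hsp22), 15 at 1000 bp, 12 with the nearest TSS only and 14 with canonical TSSs only or without mostly soft-masked peaks (both without Hsp22). The share of all protein-coding genes was 19.8%, 27.1%, 17.9%, 20.9% and 23.3% under the same settings. With the 2433 IDR peaks of highest signal 10 of the genes, 13.6% of protein-coding genes, 10 distinct summits and 13 other chaperone-system genes were left. The strongest peaks of a single replicate, as many as in the IDR list, gave 14 genes without replicate 1 (Hsp68 lost), against 24.1% of protein-coding genes, and 13 without replicate 2 (DnaJ-1 and Hsp60A lost), against 22.5%. The share of protein-coding genes fell inside the interval of the 35 genes in these 2 cases and at 250 and 1000 bp, and below it under the other settings. The promoters with a heat shock element numbered 14 with 500 bases on each side (against 1.61% of protein-coding genes), 21 with 2 units (against 19.9%) and 16 with 1 mismatch (against 10.6%), beside 0.567% for the perfect element. Read from its peak nearest to a TSS, Hsc70-3 had a signal of 109.9. No paired analysis was possible because there was 1 group. With 2 replicates and no read depth, a missing summit shows only that no peak was listed there.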
